A study of Mus musculus with 3 samples.

Results

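Expression of 8 genes of the caspase family was examined in resident macrophages of the backskin of untreated CD1 mice, sorted for CD11b and F480 (the labels' spelling of the antigen that Adgre1 encodes) and against Gr1. Telogen, the resting phase of the hair cycle, was sampled at an early (Te), a middle (Tm), and a late stage (Tl), at postnatal days 42, 55, and 69 by the labels. The text of the study places Te at a slightly later day. Each stage is 1 single-color array of amplified RNA pooled from 3 littermates, so that differences between stages have no replicate check and no test was possible. The members were the genes Casp9, Casp8, and Casp2 (apoptotic initiators), Casp6 (apoptotic executioner), Casp1, Casp4, and Casp12 (inflammatory), and Casp14 (epidermal), found through the RefSeq transcript of each probe. They are 8 of 19752 genes named on the array and are covered by 9 of its 55681 probes, each printed as a single spot, with Casp4 being the gene with 2 probes. Levels are log2 signals from which the array's own 75th percentile was subtracted, so that 0 is the signal of that percentile. The precision is limited by the number of arrays. Repeated spots of other probes give a difference between arrays a technical SD of 0.16 (Te and Tm), 0.17 (Te and Tl), and 0.16 (Tm and Tl) on the log2 scale, which leaves out the variation between mice, sorts, and amplifications.

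The caspases are proteases that cut their targets after an aspartate and that are made as inactive precursors. Initiator caspases such as Casp9 and Casp8 are switched on when they are brought together on a platform, and they then cut executioner caspases, which take the cell apart. Inflammatory caspases are switched on by inflammasomes or by bacterial lipopolysaccharide, and they mature interleukins and open pores in the membrane of macrophages. Casp14 is set apart from both, since it is made in the upper layers of the epidermis, where it takes part in cornification and in the breakdown of filaggrin. An mRNA level does not show whether the protease is active.

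Of the probes on the array, 59.6% to 71.4% were well above background. In these macrophages, the sorting antigen gene Adgre1 was at 4.83, 5.51, and 5.15 at Te, Tm, and Tl. Itgam, the gene of the sorting antigen CD11b, was at 8.951, 8.725, and 7.851, and thus lower at Tl than at Te (-1.1). All 15 macrophage markers found on the array were well above background on the 3 arrays, and most of them were lower at Tl than at Te. The value table that the authors deposited beside the scanner files matches the scanner file of Tl in its Tm column (residual SD 0.0044, log2) and the scanner file of Tm in its Tl column (0.0057). The arrays of Tm and Tl are therefore assigned in opposite ways by the deposited files. They are named here after the scanner files, and both are given for each gene, so that with the other assignment the values of Tm and Tl change places.

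The 8 genes differ in where they lie and in the base composition upstream of their starts. Casp1, Casp4, and Casp12 follow each other on chromosome 9 with no other protein-coding gene between them in RefSeq, and the 5 other members lie on chromosomes 1, 3, 4, 6, and 10. The 250 bases upstream of the start (RefSeq, GRCm38.p6) are shown for the genes whose signal differed by at least 2-fold from Te on either later array, with CG dinucleotides in capitals. The windows are chr4:141793362-141793611, + strand for Casp9, chr6:42264735-42264984, + strand for Casp2, chr10:78718294-78718543, - strand for Casp14, chr9:5308599-5308848, + strand for Casp4, and chr9:5345226-5345475, + strand for Casp12. Casp4 has a second start in the table whose window overlaps this one.

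Casp9: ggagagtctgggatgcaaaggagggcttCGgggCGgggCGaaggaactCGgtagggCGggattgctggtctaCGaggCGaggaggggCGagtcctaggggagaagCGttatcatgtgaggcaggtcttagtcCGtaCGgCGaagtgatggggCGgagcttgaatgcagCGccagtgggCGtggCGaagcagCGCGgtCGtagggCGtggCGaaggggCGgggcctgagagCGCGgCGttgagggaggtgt
Casp2: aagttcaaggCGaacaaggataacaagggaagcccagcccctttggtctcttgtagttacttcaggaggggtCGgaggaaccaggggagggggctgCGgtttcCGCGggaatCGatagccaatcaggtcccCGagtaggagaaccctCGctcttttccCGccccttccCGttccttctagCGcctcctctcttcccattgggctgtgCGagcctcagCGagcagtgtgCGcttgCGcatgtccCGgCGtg
Casp14: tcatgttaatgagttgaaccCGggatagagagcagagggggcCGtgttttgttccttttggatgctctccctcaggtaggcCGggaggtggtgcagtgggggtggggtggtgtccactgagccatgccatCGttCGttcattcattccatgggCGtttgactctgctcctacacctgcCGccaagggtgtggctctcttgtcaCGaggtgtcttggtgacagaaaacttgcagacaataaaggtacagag
Casp4: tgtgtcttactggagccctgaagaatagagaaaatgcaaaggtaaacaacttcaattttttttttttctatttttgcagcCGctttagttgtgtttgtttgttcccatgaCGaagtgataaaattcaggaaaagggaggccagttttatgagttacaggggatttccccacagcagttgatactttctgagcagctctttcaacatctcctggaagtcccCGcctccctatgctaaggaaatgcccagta
Casp12: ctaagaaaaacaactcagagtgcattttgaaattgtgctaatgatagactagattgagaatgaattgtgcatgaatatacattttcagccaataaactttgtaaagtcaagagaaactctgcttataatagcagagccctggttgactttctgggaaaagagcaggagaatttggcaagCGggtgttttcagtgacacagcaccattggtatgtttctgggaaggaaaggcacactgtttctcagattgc

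Casp9 has 25 CG dinucleotides in this window and Casp2 has 17, compared to a median of 6 (quartiles 2 and 16) over 32544 RefSeq promoters. Casp6 has 11, Casp14 has 8, Casp8 has 5, Casp4 has 3, and Casp1 and Casp12 have 1 each. The 3 inflammatory genes thus have fewer than the median, and 3 of the 4 apoptotic genes have more. The letters GGGCGG, read on both strands and found in 33.0% of the promoters, occur 4 times upstream of Casp9 and once upstream of Casp2 and Casp6. The letters TTCNNNGAA, found in 7.04% of the promoters, occur upstream of Casp12 alone among the members, at 2 sites that both read TTCTGGGAA. CCAAT (33.8% of the promoters) was found upstream of Casp2, Casp8, and Casp12, while TATAAA (12.3%) and TGANTCA (6.73%) were found upstream of none of the 8 genes, and no site overlapped that of another motif. These letters describe the windows and are not evidence of binding.

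Compared to Te, 3 members were at least 2-fold higher on the Tl array (Casp9, Casp2, and Casp14), and 2 were at least 2-fold lower (Casp4 and Casp12). Among the 16164 genes with a value in this comparison, 22.2% were at least 2-fold higher and 20.7% at least 2-fold lower. On the Tm array the same 3 members were higher and 1 was lower (Casp4), compared to 29.1% and 16.9% of 15843 genes. With 8 members, counts this small lie near these shares and are no result about the family as a whole. At 10-fold, the threshold named in the methods of the study, 0 members were counted as higher or lower. The values of Casp14 and Casp12 are lower bounds of the size, however, and for neither gene do they exclude a difference past 10-fold. Of all genes, 0.668% were at least 10-fold higher and 0.464% lower at Tl, 1.12% higher and 0.316% lower at Tm, and 0.0539% higher and 0.128% lower at Tl compared to Tm. The median difference of the 8 members was 0.34 at Tl and 0.45 at Tm, beside 0.15 and 0.22 over all genes.

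**Figure D1:**
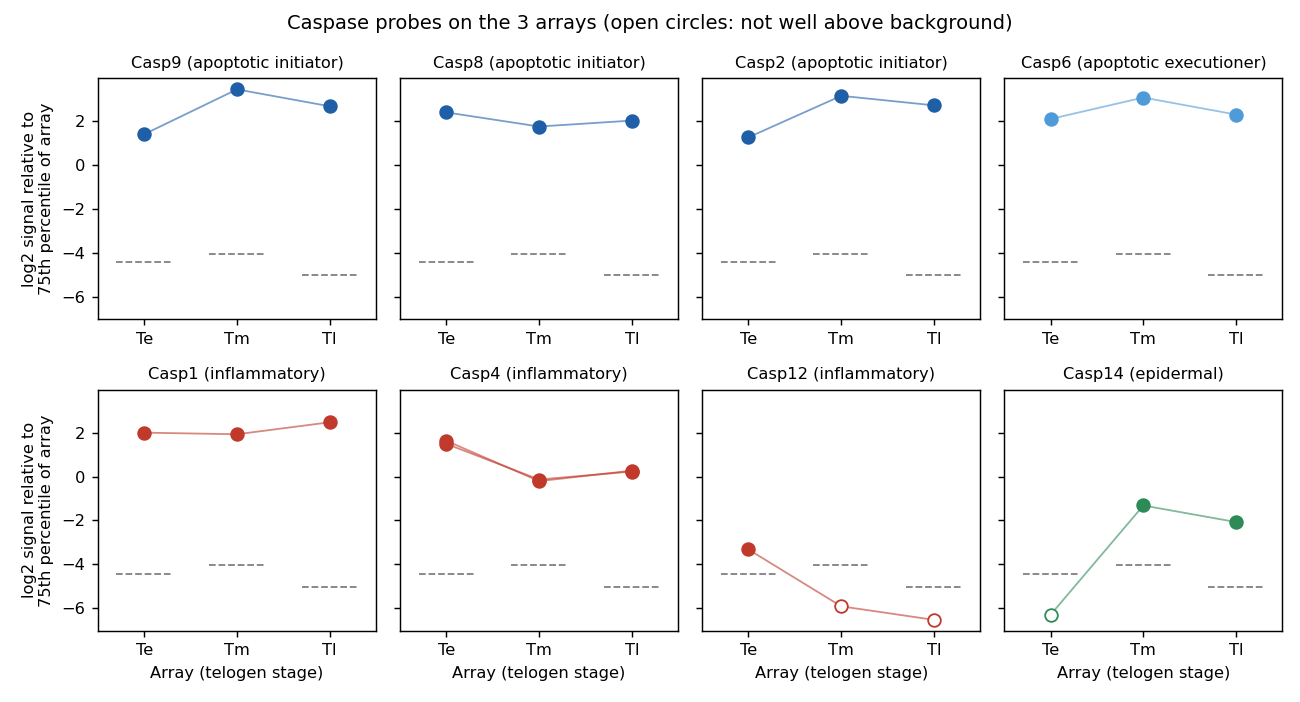
Log2 signal minus that of the array's 75th percentile (y axis) for the 9 caspase probes on the Te, Tm, and Tl arrays (x axis), 1 array per stage. Filled circles are well above background, open circles are not, and dashed lines mark the lowest signal well above background on each array. Casp12 was above background at Te alone, and Casp14 on the Tm and Tl arrays alone.

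Among the apoptotic initiators, Casp9, which is activated on the apoptosome that Apaf1 forms with cytochrome c, was at 1.40 at Te, 3.44 at Tm, and 2.67 at Tl. It was thus lowest at Te, and higher by 2.04 (4.12-fold) on the Tm array and by 1.27 (2.42-fold) on the Tl array. Both differences exceed the spot error, and 912 of 13249 genes measured on both arrays had a larger one at Tm (2106 of 14162 at Tl). In RNA from pooled sorted cells, fewer cells of a type and less RNA per cell cannot be told apart. Casp2, which is activated on a platform of Pidd1 and Cradd, was at 1.25, 3.14, and 2.71 at Te, Tm, and Tl. The order of the arrays was the same as for Casp9, with differences from Te of 1.89 (3.70-fold) at Tm and 1.46 (2.74-fold) at Tl.

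Casp8, the initiator of the death receptor pathway, was at 2.39, 1.75, and 2.02. It was highest at Te, and its differences of -0.64 at Tm and -0.37 at Tl were under 2-fold. At Tm the difference passed 2-fold with quantile normalization (-1.04) and with the percentile taken over probes detected throughout (-1.02). At Tl it turned to 0.79 without scaling and to 0.15 with median scaling, whereas relative to the median of all genes it was below 0 under each of 6 scalings and background corrections. Casp6, an executioner that cuts nuclear lamins, was at 2.09, 3.06, and 2.29. It was highest at Tm, by 0.98, which passed 2-fold with median scaling (1.53) and without scaling (1.24), and its Tl level differed from Te by 0.20, close to the spot error. Relative to the median of all genes, this difference of Casp6 at Tl was below 0 with quantile normalization. The 4 apoptotic members thus differed in pattern. Their median difference was 1.43 at Tm and 0.74 at Tl, with 3 of 4 above 0 on each array. Of all genes with a value, 55.77% were above 0 at Tm and 54.75% at Tl. Counts this small are no result about the apoptotic members as a class.

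Of the inflammatory members, Casp1, which matures interleukin-1 beta and interleukin-18, was at 2.00 at Te, 1.92 at Tm, and 2.47 at Tl. Te and Tm differed by -0.07, less than the spot error, and the difference was above 0 with median scaling (0.48), without scaling (0.19), with normexp background correction (0.03), and with the arrays exchanged (0.47). Scaled to the 75th percentile, Tl was higher than Te by 0.47 (1.39-fold). Over the alternatives this difference ranged from -0.07 with the arrays exchanged to 1.635 without scaling. Relative to the median of all genes it was 0.0085 with quantile normalization. Casp4, which senses lipopolysaccharide in the cytosol, was at 1.63, -0.21, and 0.27 by its brighter probe and at 1.49, -0.14, and 0.23 by its other probe. Both probes were highest at Te. The brighter probe differed from Te by -1.84 at Tm, where it was 3.57-fold lower, and by -1.36 at Tl, where it was 2.57-fold lower. The other probe differed by -1.62 and -1.26, respectively. At Tl the difference of the brighter probe was under 2-fold with median scaling (-0.84) and without scaling (-0.20). At Tm 418 of the 13249 measured genes were lower by more than Casp4.

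Casp12, a relative of Casp1 and Casp4 that has been linked to stress of the endoplasmic reticulum, was at -3.32 at Te. On the Tm and Tl arrays it was at -5.91 and -6.52, which are not well above background. Taking as the limit of each later array its lowest detected signal, Casp12 was at least 3.23-fold lower at Tl than at Te (a bound of -1.69 on the log2 scale) and at least 1.65-fold lower at Tm (-0.72). The bound at Tl was under 2-fold with quantile normalization (-0.89), without scaling (-0.53), and with the arrays exchanged (-0.72), and the bound at Tm passed 2-fold with the percentile taken over probes detected throughout (-1.09). The neighbouring genes Casp1, Casp4, and Casp12 therefore differed in pattern, with Casp1 on a similar level at Te and Tm and the other 2 highest at Te.

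Casp14 was not well above background at Te (-6.29), and it was above background at Tm (-1.32) and Tl (-2.07). It was at least 8.71-fold higher at Tm than at Te (3.12 on the log2 scale) and at least 5.17-fold higher at Tl (2.37). The plain ratios of the signals, which rest on a Te signal within background, were 31.4 and 18.6. In the authors' table, which was read without a filter on dim probes, the difference of Casp14 was 4.22 in the column labeled Tm and 4.98 in that labeled Tl. With normexp background correction the difference was 1.48 at Tm and 0.77 at Tl, the latter under 2-fold.

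**Figure D2:**
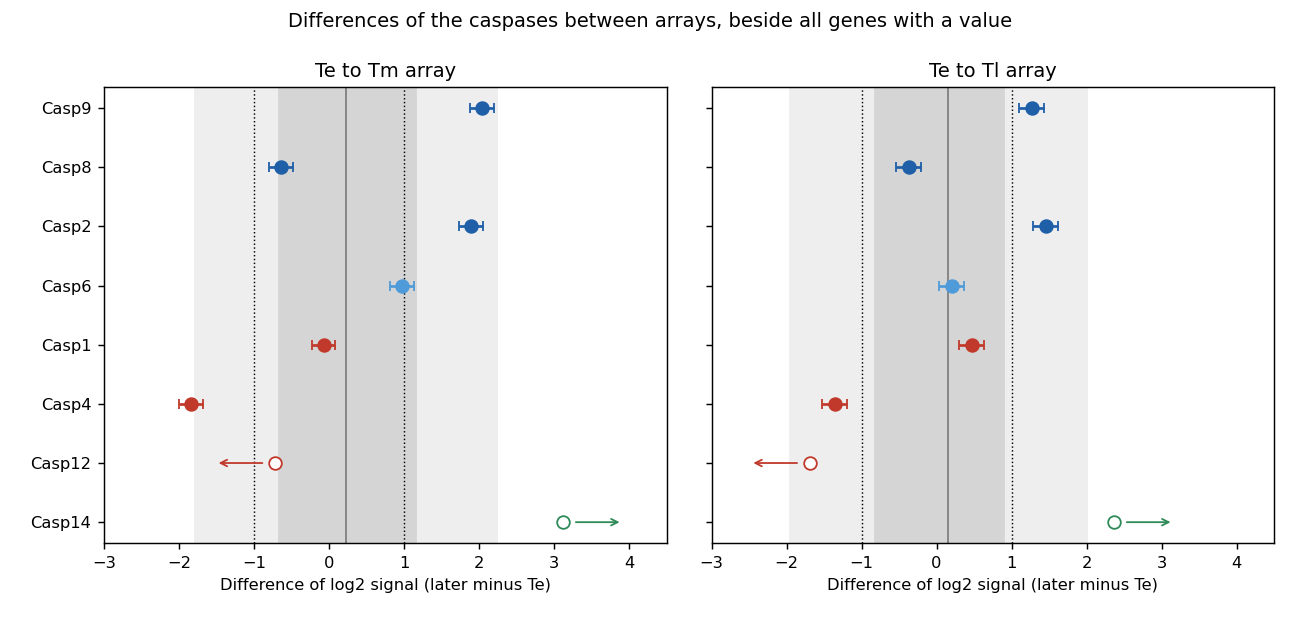
Difference of the log2 signal from Te (x axis) for the 8 caspases, on the Tm array (left) and the Tl array (right). Filled points are measured on both arrays with bars of 1 technical SD from repeated spots, open points with arrows are lower bounds of the size, dotted lines mark 2-fold, and the grey bands hold the middle 50% and 90% of all genes with a value, around their median. Casp9, Casp2, and Casp14 lie above 2-fold on both arrays and Casp4 lies below.

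Between the Tm and Tl arrays, none of the 7 members with a value differed by 2-fold (7.85% of 14846 genes were at least 2-fold higher at Tl and 11.3% at least 2-fold lower). Casp9, Casp6, and Casp14 were lower at Tl than at Tm by similar amounts, with differences of -0.77, -0.77, and -0.75, and Casp2 differed by -0.43, although without scaling all 4 differences were above 0. Casp1, Casp4, and Casp8 were higher at Tl, by 0.54, 0.48, and 0.27. All of these exceed the technical SD of 0.16. Casp12 was not above background on either array. With the other assignment of the arrays, these signs are turned.

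Casp14, which is made in the upper layers, was set beside markers of keratinocytes in general and then of the granular layer. Of 14 keratinocyte markers on the array, 11 were at least 2-fold higher at Tm and 10 at Tl, and none was 2-fold lower, with a median difference of 3.29 and 3.04. Krt5, a keratin of the basal layer, was at 1.58, 5.55, and 4.91 at Te, Tm, and Tl, and Lor, which encodes the loricrin of the cornified envelope, was at -4.02, 0.94, and 2.07. At Te 13 of the 14 keratinocyte markers were already well above background, while Casp14 was not. The summed signal of the 14 markers was 8.12, 8.65, and 8.08 on the log2 scale, and is dominated by 1 bright Trp63 probe. Without Trp63, left out after its values were seen, the sum was 4.06, 7.12, and 6.75. The markers of the granular layer were less uniform, with a median difference of 0.60 at Tm and 0.03 at Tl. Lor had the largest increase of this list on both arrays. Ivl differed by -0.77 at Tm and -0.07 at Tl, and Krt2 by -0.01 and -0.17. Of the 9 granular markers on the array, 5 were well above background at Te, 7 at Tm, and 8 at Tl. On each later array 3 were at least 2-fold higher and 1 lower. The shares over all genes were 29.1% higher and 16.9% lower at Tm, and 22.2% and 20.7% at Tl.

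Among the genes that act with or are cut by Casp14 in the cornifying epidermis, 6 of 9 with a value were at least 2-fold higher at Tm, and 3 of 7 at Tl, with 1 lower on each. Over all genes with a value, 29.1% were at least 2-fold higher and 16.9% lower at Tm, and 22.2% and 20.7% at Tl. The median difference of the list was 1.32 at Tm and 0.64 at Tl. Asprv1, an aspartic protease that processes filaggrin, was higher by 1.75 at Tm and 1.55 at Tl, and Blmh, which breaks filaggrin down to amino acids, by 1.32 and 1.33. Hrnr, a filaggrin-like protein, differed by 0.60 and 0.03, and Tgm3, a transglutaminase, by -2.04 and -2.17. The filaggrin gene itself was not analysed here. The part of keratinocyte RNA in the signal of Casp14 was not tested.

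The platforms on which the apoptotic initiators are activated were represented by 10 genes. Of these, 2 were at least 2-fold higher on each later array, with 1 lower at Tm and none at Tl. Among all genes, 29.1% were higher and 16.9% lower at Tm, and 22.2% and 20.7% at Tl. Counts this small are no result about the platforms. The median difference of the list was 0.17 at Tm and -0.07 at Tl. Cycs, which encodes cytochrome c, was higher by 1.90 at Tm and 1.49 at Tl, and Tradd, an adaptor of the TNF receptor, by 2.03 and 1.41. Apaf1, the scaffold of the apoptosome, differed by -0.95 and -0.03. The partners of Casp2 were lower, with differences of -0.61 and -0.92 for Pidd1 and of -0.45 and -0.58 for Cradd, all under 2-fold. Fadd, which recruits Casp8, differed by 0.53 and -0.22.

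Of the 13 genes that restrain caspases or carry a related domain, 2 were at least 2-fold higher and 3 lower at Tm. At Tl 4 were higher and 3 lower, and the medians were -0.46 at Tm and 0.30 at Tl. Beside these counts and those of the targets below, all genes had 29.1% higher and 16.9% lower at Tm. At Tl these shares were 22.2% and 20.7%, and counts this small are no result about either list. Birc5, which encodes survivin and is also a gene of dividing cells, was higher by 2.46 at Tm and 1.97 at Tl. Birc3, an inhibitor of apoptosis that acts in TNF receptor signaling, was lower on both arrays, with differences of -2.01 and -1.69. Xiap, which blocks Casp9 directly, was higher by 0.46 and 0.60, and Cflar, which limits Casp8, differed by -0.07 and 0.30. Serpinb9, an inhibitor of granzyme B, was not above background at Tm, where its bound was -0.83, and was higher by 1.52 at Tl. Among the genes cut by apoptotic caspases, 3 of 12 were at least 2-fold higher at Tm and 2 of 13 at Tl, with 1 lower on each. Gsdme, a pore-forming gasdermin, was higher by 2.10 and 1.81, and Acin1, which acts in chromatin condensation, differed by -1.32 and -1.16.

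Of the inflammasome genes, 2 of 13 were at least 2-fold higher and 3 lower at Tm, and 2 of 12 were higher and 4 lower at Tl. The shares of all genes were 29.1% higher and 16.9% lower at Tm, and 22.2% and 20.7% at Tl. The medians of the list were -0.30 at Tm and -0.71 at Tl. The sensor of cytosolic DNA, Aim2, was higher by 2.21 at Tm and 2.71 at Tl, and Card9, an adaptor downstream of C-type lectins, by 2.46 and 2.01. Mefv, which encodes pyrin, differed by -1.36 and -1.90. Nlrp3 differed by -0.65 and -0.93, and Pycard, the adaptor that recruits Casp1, by 0.90 and 0.09. Gbp5, a guanylate-binding protein induced by interferon, differed by -1.85 at Tl and was not above background at Tm, with a bound of -3.67.

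The named targets of Casp1 and Casp4 differed in direction. Gsdmd, the gasdermin that both cut, differed by -1.28 at Tm and -1.34 at Tl, and Il1b by -0.50 and -1.22. Il18 was higher by 1.84 and 1.51. The list they come from also holds Il1a, Il33, and Ninj1, which are not taken here as targets of Casp1 or Casp4. Of its 6 genes, 1 of 4 with a value was at least 2-fold higher at Tm and 1 lower, and 2 of 6 were higher at Tl and 2 lower. Il33 was among those higher at Tl, by a bound of 2.44. Shares over all genes were 29.1% higher and 16.9% lower at Tm, and 22.2% and 20.7% at Tl.

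**Figure D3:**
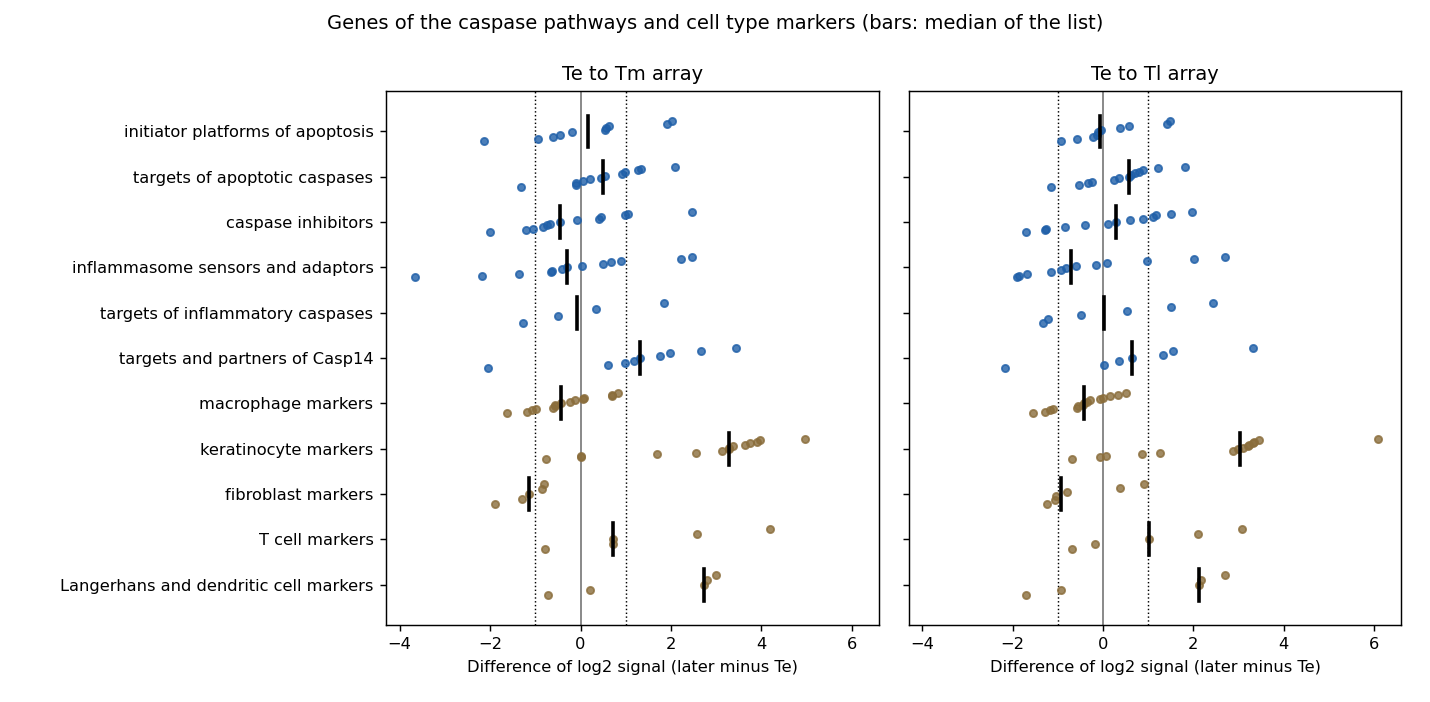
Difference of the log2 signal from Te (x axis) on the Tm array (left) and the Tl array (right) for each gene with a value, lower bounds included, in 6 lists of the caspase pathways (blue) and 5 lists of cell type markers (brown), with a bar at the median of each list and dotted lines at 2-fold. The keratinocyte and Langerhans cell lists lie farthest to the right, with medians of 3.29 and 2.73 at Tm, and the pathway lists spread to both sides of 0.

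Markers of other cells moved between the same arrays. Macrophage markers were not 2-fold higher on either array, and 3 of 15 were at least 2-fold lower at Tm and 4 at Tl, with medians of -0.44 and -0.42 and a summed log2 signal of 9.93, 9.77, and 9.22 at Te, Tm, and Tl. Of 5 markers of Langerhans and dendritic cells, 3 were at least 2-fold higher on each later array, none was lower at Tm and 1 was lower at Tl, and their summed log2 signal was 4.40, 7.20, and 6.49. Of 5 T cell markers, 2 were higher at Tm and 3 at Tl, with a sum of 0.95, 2.65, and 1.89. Of the fibroblast markers, 3 of 5 with a value were lower at Tm and 3 of 6 at Tl, with a sum of 6.51, 5.41, and 5.53. None of 3 neutrophil and 5 mast cell markers with a value was 2-fold higher on either later array. The mast cell marker Tpsb2 was lower on both, with differences of -1.17 at Tm and -2.06 at Tl. Ngp of neutrophils was lower at Tl by a bound of -1.02. Beside the counts of all these markers, 29.1% of all genes were higher and 16.9% lower at Tm, and 22.2% and 20.7% at Tl. The summed signals of the keratinocyte (without Trp63), Langerhans and dendritic, and T cell lists were lowest at Te and highest at Tm. Casp9, Casp2, Casp6, and Casp14 had this order too, as did the summed platforms of apoptosis (3.915, 4.905, and 4.479). The share of all genes with this order is not given here. Other sums were highest at Te, among them the granular markers (5.511, 3.869, and 3.94) and the targets and partners of Casp14 (5.53, 3.87, and 3.662). Both are dominated at Te by Tgm3 (5.489). The sums of the caspase inhibitors, inflammasome genes, and targets of inflammatory caspases were also highest at Te. With Trp63 the keratinocyte sum was lowest at Tl (8.08). The summed fibroblast signal was, like Casp4 and Casp8, highest at Te and lowest at Tm. The part of these cells in the caspase signals was not tested.

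The genes most alike in pattern to each caspase measured on all 3 arrays were taken by the distance of their 2 differences from Te. They were Amz1, Alg1, and Pold4 for Casp9, Adcy7, Bahd1, and Tmem230 for Casp2, and Pfkfb3, Kif23, and Chrnb1 for Casp8. For Casp6 they were Naglu, Supt4b, and Rnaseh2a, for Casp1 Atg9b, Paip1, and Ptpra, and for Casp4 Sptbn4, Trank1, and 3110082I17Rik. With 3 arrays such likeness is common. Of 13077 genes, 217 lay within 0.23 (log2) of Casp9, 222 of Casp2, 267 of Casp8, 282 of Casp1, and 378 of Casp6. This limit is the combined spot error of the 2 differences of a single gene. It leaves out the error of the gene compared, so that the spot error of a distance is larger. Casp4 had the fewest genes within the limit, with 57.

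**Figure D4:**
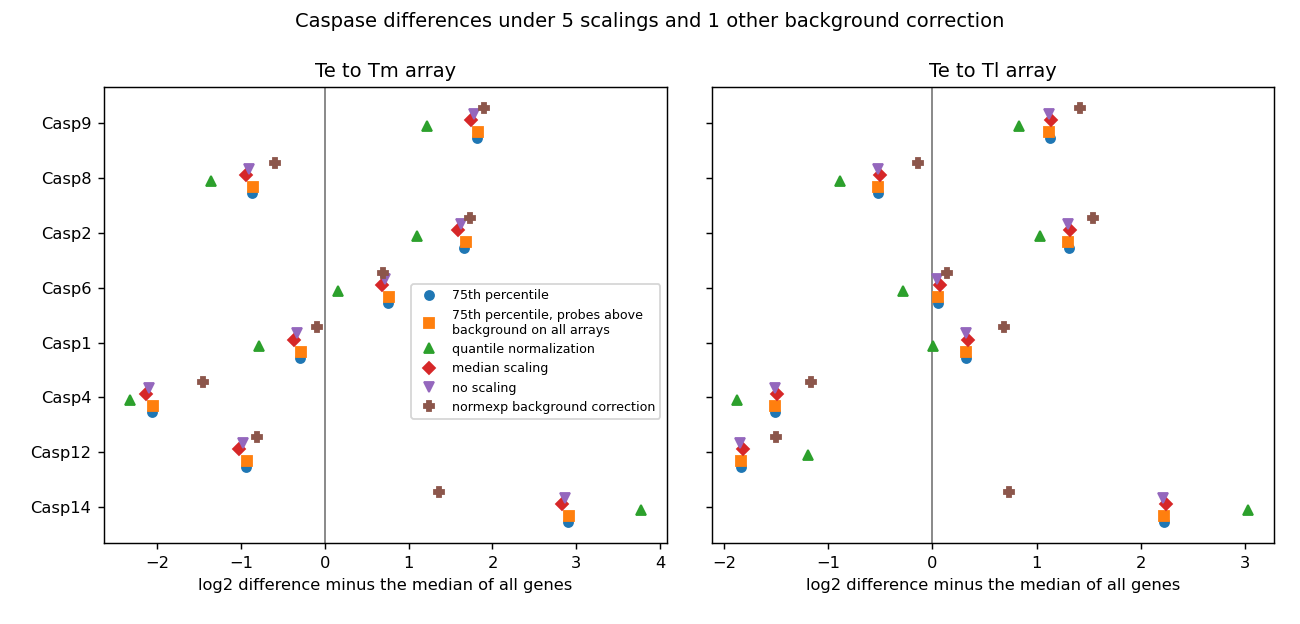
Difference from Te minus the median difference of all genes (x axis, log2) for the 8 caspases on the Tm array (left) and the Tl array (right), under 5 scalings and with normexp background correction, lower bounds included. Casp9, Casp2, and Casp14 lie above 0 and Casp4 and Casp12 below 0 under each setting with a value, while Casp6 crosses 0 at Tl.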

How the data were processed

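Per the labels and the methods of the study, 0.05-1 ng of RNA per pool was amplified with a TransPlex kit and hybridized to an Agilent mouse 8x60K array, and images were quantified with Feature Extraction (10.7.3.1). The authors deposited the background-corrected intensity of each spot, without normalization between arrays, and a table of log2 values for 36409 probes, in which the median of each probe over the arrays is 0 (the column labeled day 42 has a median of 0.362 and the others a median of 0, and the normalization between arrays is unknown). The deposited scanner files also hold other values, the 0 or 1 detection calls used here.

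Control and outlier spots were left out (162 to 281 per array), no spot was saturated, spots of a probe were averaged, and the array's 75th percentile was subtracted from each log2 intensity. Probes were named through RefSeq transcripts (GRCm38.p6 table, 26056 of 55681 probes). A gene was represented by its brightest probe. Detection required a well above background call on a share of 0.5 or more of a probe's spots. With detection on 1 array, the difference is a bound against the lowest detected signal of the dim array or the probe's own signal, if higher. A difference was counted from 2-fold. Spot errors are median SDs over probes with at least 10 spots. Without replicates no test was run, and p-values are not given.

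Named genes were the members, from each list up to 2 genes with the largest increase and decrease at Tl measured on both arrays, and fixed landmark genes. Members, lists, and alternatives were chosen with earlier results of these data known. Other caspases were not analysed here. The steps were tested on simulated data. Alternatives were 4 scalings, normexp (limma 3.58.1, offset 50, on median intensities), the value table, exchanged arrays, 3 filters, outlier spots kept, the median over probes, and thresholds of 10-fold and 1.5-fold. Python 3.11.15, numpy 2.4.6, and pandas 2.3.3 were used.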

Additional observations from a re-analysis of the deposited data

How the results depend on the processing

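Differences of Casp9, Casp2, and Casp14 from Te stayed above 0 and those of Casp4 and Casp12 below 0 on both later arrays under each of the 10 to 12 alternatives that gave a value. Over these alternatives the difference at Tl ranged from 1.07 to 2.44 for Casp9, 1.25 to 2.62 for Casp2, 0.77 to 4.98 for Casp14, -1.84 to -0.20 for Casp4, and -3.20 to -0.53 for Casp12. The sign of a bound could not turn for Casp14 and Casp12, because a bound of the other sign was given no value. Casp12 had no value at Tm with quantile normalization. The filters on detection left the values of Casp9 and Casp2 unchanged, as both genes were measured on each array. Relative to the median of all genes, which the scalings moved between -0.05 and 1.32 at Tl and between -0.16 and 0.86 at Tm, Casp9 ranged from 0.83 to 1.42 at Tl and Casp4 from -1.88 to -1.17.

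The counts of members depended on the setting. Of the 8 members, 3 were higher and 2 lower at Tl. Without scaling 5 were higher and 0 lower, while the median over all genes was itself 1.32, past 2-fold, and at 10-fold 0 were higher and 0 lower, and 1 was lower with quantile normalization, with median scaling, with exchanged arrays, and when detection on both arrays was required. At Tm 3 were higher and 1 lower. At 10-fold 0 were higher and 0 lower, with the percentile taken over probes detected throughout 3 were lower, at 1.5-fold 3 were lower, and 2 were lower with quantile normalization, the authors' table, exchanged arrays, the positive and significant call, and no filter. Between Tm and Tl none was higher or lower, whereas without scaling 3 were higher and at 1.5-fold 3 were lower. The median of the members at Tl (0.34) was 0.13 with that percentile, 0.17 with quantile normalization, 0.86 with median scaling, 1.499 without scaling, and 1.89 in the authors' table, which lists 5 of the 8 genes. At Tm (0.45) it was 0.0779 with that percentile, 1.01 with median scaling, 0.71 without scaling, and 1.27 in the authors' table. From Tm to Tl (-0.43) it was -0.27 with that percentile, -0.0821 with quantile normalization, 0.47 without scaling, 0.62 in the authors' table, and 0.43 with exchanged arrays. The authors' table was read without a filter on dim probes.

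No paired analysis was possible because each stage has 1 array, and leaving out an array leaves a stage without data. Signal over background limits Casp12 and Casp14, whose folds are bounds. The 75th percentile was 16.5 to 32.3 times the lowest signal well above background.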
